A study of Mus musculus with 16 samples.

Results

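The 10 genes described here code for subunits of the transcription factor AP-1 (Fos, Fosb, Jun, Junb, Jund and Atf3) and for other immediate early products (Egr1, Ier2, Ier3 and Dusp1). They were taken by name, not for any value in these data, and all 10 had rows among the 28692 genes of the table. The study profiled single endothelial cells (EC), the cells that line blood and lymph vessels, from the lungs of female C57BL/6N mice. The mouse ages were not given in the sources used here. Cells came from wild-type mice (d0), from mice with a primary tumour (d15), from mice after resection of that tumour (d22) and from mice with metastases (d36). The tumour was grown from Lewis lung carcinoma (LLC) cells, a mouse lung cancer line, implanted under the skin, and the label of d0 is wild-type. The EC were sorted by flow cytometry and went straight into 10x Genomics 3′ libraries (version 2 chemistry), which tag each transcript with a unique molecular identifier (UMI). The labels list 4 libraries per day, but the cell names carry the day only, so each day was 1 pooled sample with no spread between libraries or animals, and no test between days was possible.

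AP-1 is a pair of leucine zipper proteins, one from the Jun family with one from the Jun, Fos or ATF families, and binds DNA elements known as TRE and CRE. Immediate early genes are transcribed within minutes of a stimulus, without new protein synthesis, by factors already present in the cell, and their RNAs decay fast. In endothelium they are known to respond to growth factors, to altered flow and to wounding, and in dissociated tissue also to the enzyme digestion that frees the cells. The protocols in the labels do not describe the digestion, its temperature or its duration.

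After cells of other types were left out, 8876 of 9036 cells remained as EC, with 2628 on d0, 1480 on d15, 3190 on d22 and 1578 on d36. At least 1 UMI of the endothelial markers Pecam1, Cdh5 or Cldn5 was found in 98.9% of them, while Ptprc, the leukocyte marker CD45, was at most 0.748 counts per 1000000 UMIs (CPM) at any day. Depth moved with the day, with median UMIs per cell of 7640 on d0, 4151 on d15, 7665.5 on d22 and 3404.5 on d36. Among the deposited nonzero values 45.2% to 54.9% were exactly 4, by day, and 10.99% to 14.4% were 1, so the UMIs cannot be read as independent molecules. Intervals were therefore computed from counts divided by 4, and per-cell measures from counts divided by 4 and rounded up, called collapsed counts below. The intervals are 95% intervals and cover counting error only. A set of 36 barcodes occurred at 2 days, in 70 EC, and without those cells every count of genes past the size rule between days was the same.

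Upstream sequences are given for Fos and Junb, the pair with the highest correlation across cells, and for Dusp1, the gene that differed between days. They run from 200 bases before the start to the base before it, from RefSeq on GRCm38.p6, the patched mm10 build. RefSeq windows were matched for 8 of the 10 genes, and Ier2 and Egr1 had none. Capitals mark the CRE (TGACGTCA), its core (TGACG) and the TATA box (TATAAA), searched on both strands, and a CRE holds the core by its letters.
Fos, chr12:85473690-85473889, plus strand: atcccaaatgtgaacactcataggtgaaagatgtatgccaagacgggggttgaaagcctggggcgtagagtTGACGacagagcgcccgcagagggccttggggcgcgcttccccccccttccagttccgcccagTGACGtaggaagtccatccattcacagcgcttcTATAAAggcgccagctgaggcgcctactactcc
Junb, chr8:84978749-84978948, minus strand: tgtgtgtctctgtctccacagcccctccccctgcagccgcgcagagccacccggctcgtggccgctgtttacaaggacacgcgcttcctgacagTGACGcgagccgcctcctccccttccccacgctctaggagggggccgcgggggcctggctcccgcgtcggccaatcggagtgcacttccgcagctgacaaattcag
Dusp1, chr17:26508473-26508672, minus strand: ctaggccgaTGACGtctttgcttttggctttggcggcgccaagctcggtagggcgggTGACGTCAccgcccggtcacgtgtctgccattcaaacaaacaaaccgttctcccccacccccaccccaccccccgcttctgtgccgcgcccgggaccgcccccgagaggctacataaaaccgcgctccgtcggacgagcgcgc
The full windows held 250 bases before the start and 50 after it. In them the CRE was found in Dusp1 alone of the 8 genes, 143 to 136 bases before its start. It was in 1.79% of all 32851 RefSeq windows. The core lay in Atf3, Dusp1, Fos, Fosb and Junb, and in 20.8% of all windows. The TATA box letters lay in Fos, 33 to 28 bases before the start, and in Junb, at bases 1 to 6 after it, and in 13.6% of all windows. Starts can differ between annotations. GENCODE, another annotation, starts Junb at base 84978718, so its TATA letters lie before that start. The whole Jund window (chr8:70697489-70697788) lies before the GENCODE start of Jund at base 70698949. The GENCODE records of Dusp1 and Atf3 begin far upstream of the windows used here, at bases 26562128 and 191218039. The positions given for these genes, that of the CRE in Dusp1 included, are therefore counted from the RefSeq starts only. The TRE (TGANTCA) was in none of the 8 windows and in 7.81% of all, and the CArG box, the element of serum response factor, in none of the 8 and in 1.63% of all. Bases farther upstream, and Egr1 and Ier2, were not searched, so the genes may hold these elements elsewhere. Only exact letters were matched, so variants of the elements, such as TGACATCA in the Jun window, were not counted. These are matches of letters and say nothing of binding.

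Together the 10 genes took 1.02% of all EC UMIs on d0, 1.24% on d15, 1.07% on d22 and 1.23% on d36. Counts of 3′ ends do not grow with transcript length, but other differences in capture between genes were not measured. The order of the genes by level is thus a description of the counts. At every day Jun and Junb were the highest and Atf3 the lowest of the 10. Jun ranked 25th among all genes on d0 and 18th on d36, and Atf3 ranked 1684th and 1795th. The summed level was 10183 CPM on d0 (10101 to 10266), 12364 on d15 (12198 to 12531), 10707 on d22 (10630 to 10785) and 12291 on d36 (12124 to 12460). The deeper days d0 and d22 were the lower ones and the shallower days d15 and d36 the higher ones. Within d0 the sum was lowest, at 9319 CPM, in the tertile of cells with the fewest UMIs (median 4120). The middle tertile of d15 cells, at a median of 4160 UMIs, had a sum of 12690 CPM. In a deeper match the values lay closer. The highest tertile of d15 (median 6992 UMIs) had 12104 CPM and the middle one of d0 (median 7640 UMIs) 11189 CPM.

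**Figure D1:**
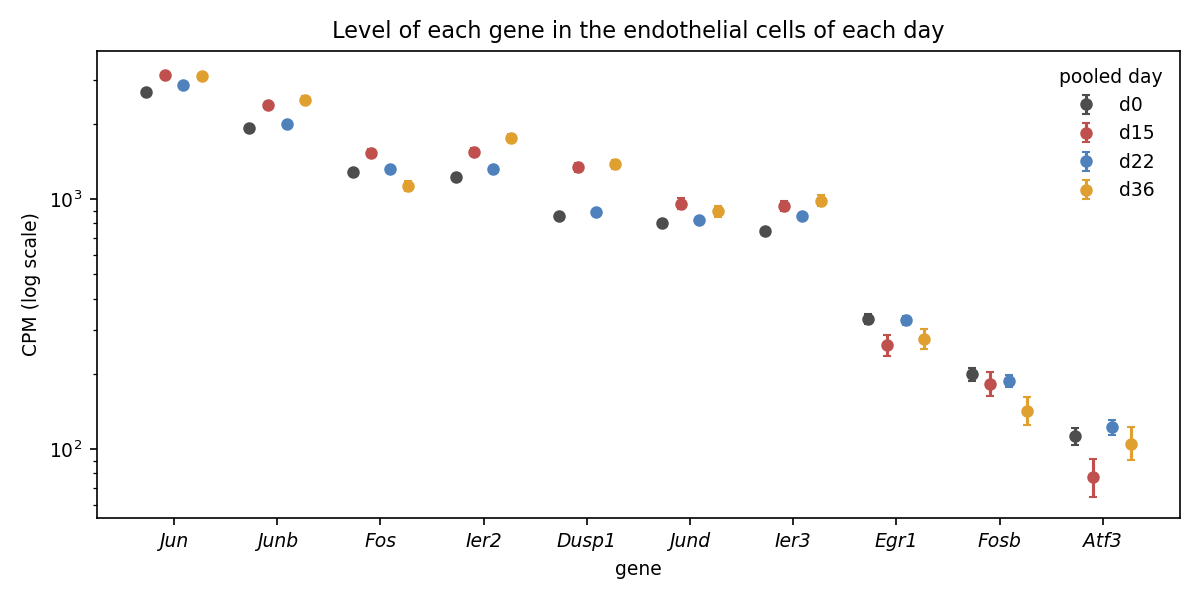
Level of each of the 10 genes (CPM, log axis) in the pooled endothelial cells of d0, d15, d22 and d36; points are the level over all cells of the day and bars the 95% counting interval. Jun and Junb lie highest and Atf3 lowest at each day, and Dusp1 is higher on d15 and d36 (1343 and 1377 CPM) than on d0 and d22 (859 and 886 CPM).

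A gene counted as past the size rule when its ratio to d0 was at least 1.5 in either direction, with an interval that excluded 1. To be measured it needed at least 50 CPM in either group and 200 UMIs over both, which all 10 genes met. The comparisons of d15, d22 and d36 share the d0 cells and are not independent of each other. Dusp1 alone passed the rule on d15 and on d36, as higher, and none of the 10 passed it on d22. Of all measured genes, 4.12% passed as higher and 2.23% as lower on d15, 0.253% and 1.74% on d22, and 4.28% and 3.29% on d36. The count of 1 in 10 as higher is thus not far above that background. The median log2 ratio of the 10 genes was 0.26 on d15, 0.05 on d22 and 0.19 on d36, beside 0.01, 0.01 and −0.03 over all measured genes.

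Dusp1 codes for a phosphatase that removes phosphate from the MAP kinases ERK, JNK and p38 and so ends the signal that induces it. Its level was 859 CPM on d0, 1343 on d15, 886 on d22 and 1377 on d36. The d15 and d36 values lay apart from those of d0 and d22. The ratio to d0 was 1.56 on d15 (1.49 to 1.64), 1.03 on d22 (0.993 to 1.07) and 1.60 on d36 (1.52 to 1.68). These ratios were above those of 96.6%, 60.7% and 97.1% of measured genes. With each cell thinned to 300 collapsed counts, Dusp1 was found in 20.8% of cells on d0, 32.3% on d15, 21.8% on d22 and 30.4% on d36. Without thinning the shares were 71.7%, 67.8%, 72.5% and 63.8%, an order set by the deeper cells of d0 and d22. No cell class is known to lack Dusp1, so the part of free RNA in these shares was not tested. Cells were also set side by side at like depth. The middle depth tertile of d15 cells (median 4160 UMIs) held 1413 CPM of Dusp1, and the lowest depth tertile of d0 cells (median 4120 UMIs) held 777 CPM. The highest tertile of d15 (median 6992 UMIs) held 1305 CPM and the middle one of d0 (median 7640 UMIs) 945 CPM. Dusp1 was higher on d15 in both matches, and in the second the values lay less than 1.5-fold apart.

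The Jun family holds the obligate partners of AP-1. Jun was 2688 CPM on d0, 3143 on d15, 2867 on d22 and 3123 on d36. Its ratio to d0 was 1.17 on d15 (1.13 to 1.21), 1.07 on d22 and 1.16 on d36 (1.13 to 1.20). Junb, which can pair with Fos proteins and also counters Jun at some promoters, was 1935, 2384, 2003 and 2502 CPM in the same order of days. Its ratio was 1.23 on d15 (1.19 to 1.28), 1.04 on d22 and 1.29 on d36 (1.248 to 1.34). Jund, the member that many resting cells keep on, was 801, 959, 823 and 896 CPM. Its ratio was 1.20 on d15 (1.13 to 1.27), 1.03 on d22 and 1.12 on d36 (1.06 to 1.19). All 3 Jun genes had their lowest level on d0 and ratios above 1 at each later day, below the size rule.

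The Fos family cannot pair with itself and needs a Jun partner. Fos was 1284 CPM on d0, 1533 on d15, 1323 on d22 and 1132 on d36. It had its highest level on d15 and its lowest on d36, with ratios of 1.19 (1.14 to 1.249) and 0.882 (0.838 to 0.928), so the d15 and d36 values fell on opposite sides of d0. Fosb was 199, 183, 187 and 143 CPM, with a ratio of 0.717 on d36 (0.621 to 0.825). Its ratio on d15 was 0.920 (0.809 to 1.04), but 1.04 as a mean over cells of each cell's CPM and 1.10 with cells thinned to 1200 UMIs. Fos and Fosb were therefore lowest on d36, where Junb was highest.

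Atf3 is a stress-induced factor of the ATF family that often represses its targets, and Egr1 is a zinc finger factor induced through ERK and serum response factor. Atf3 was 113 CPM on d0, 77.1 on d15, 122 on d22 and 105 on d36. Its ratio of 0.685 on d15 (0.564 to 0.827) fell just short of the size rule, and reached it at 0.660 when TMM factors, which scale the days by trimmed means of log ratios, were used. Egr1 was 331, 260, 328 and 275 CPM, with ratios of 0.785 on d15 (0.706 to 0.871), 0.990 on d22 and 0.831 on d36 (0.749 to 0.921). Both genes were lowest on d15. Within d0 both were lower in the lowest depth tertile of cells than in the middle one. Atf3 was 66.6 against 136 CPM and Egr1 253 against 373 CPM. The middle tertile of d15, of like depth to the lowest of d0, held 59.5 CPM of Atf3 and 277 CPM of Egr1. The highest tertile of d15, nearest in depth to the middle one of d0, held 87.3 CPM of Atf3 and 250 CPM of Egr1. The d15 values were thus close to those of d0 in the shallower match and well below them in the deeper one.

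Ier2 and Ier3 code for small proteins without a DNA-binding domain that are induced with the AP-1 genes. Ier3 is known to affect cell death and ERK signalling. Ier2 was 1228 CPM on d0, 1542 on d15, 1315 on d22 and 1750 on d36, and Ier3 was 747, 940, 854 and 987 CPM. The ratios on d15 were 1.26 for both genes. On d22 they were 1.07 for Ier2 and 1.14 for Ier3 (1.10 to 1.19), and the latter was the highest ratio of the 10 genes at that day. On d36 they were 1.43 for Ier2 (1.36 to 1.49) and 1.32 for Ier3 (1.248 to 1.40). In general capillary-like cells alone, a class described below, the ratio of Ier2 on d36 was 1.58 (1.49 to 1.69) and passed the size rule.

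**Figure D2:**
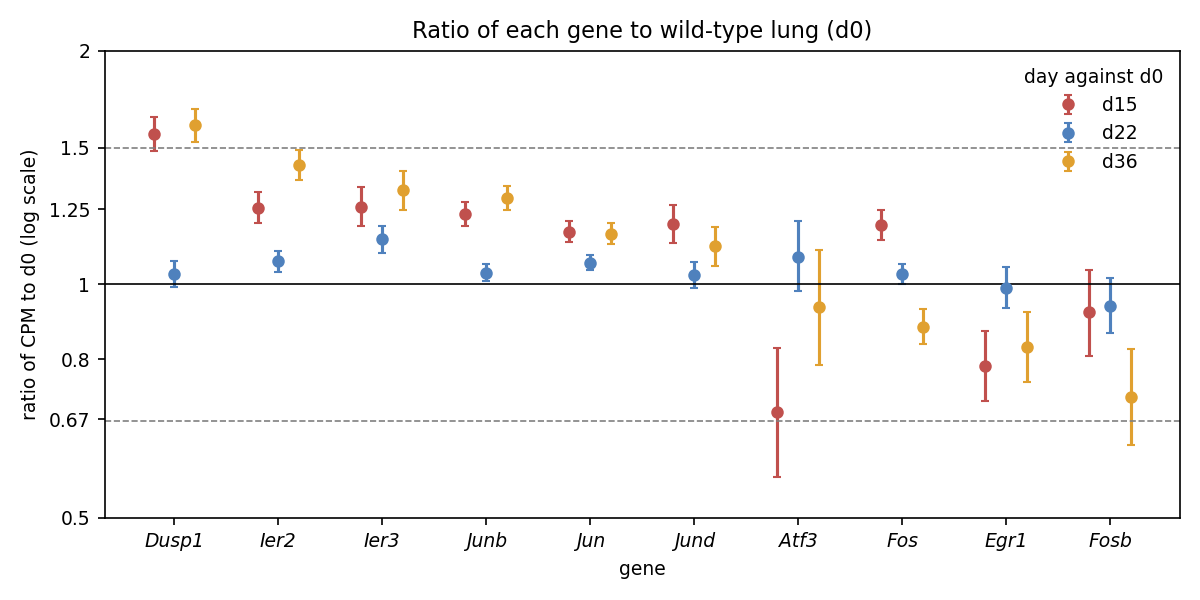
Ratio of the CPM of each gene on d15, d22 and d36 to that on d0 (log axis) with 95% counting intervals; dashed lines mark ratios of 1.5 and its inverse. Dusp1 lies above the upper line on d15 and d36 (1.56 and 1.60), the d22 ratios lie between 0.939 and 1.14, and Atf3 on d15 (0.685) is the lowest.

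Other genes of the pathway were read from lists. Of 33 further early response genes, 32 had a row and 18 were measured at each contrast. On d15 1 passed as higher and 1 as lower, on d22 none did, and on d36 3 passed as higher and 1 as lower. Klf10, a TGF-β-induced repressor, had ratios of 1.89 on d15 and 1.80 on d36, and Csrnp1 had 1.69 on d36. Phlda1 was lower, with 0.514 and 0.651. The median log2 ratio of these genes was 0.18 on d15, −0.04 on d22 and 0.23 on d36. Of 15 MAP kinase phosphatases and feedback genes outside the 10, 2 were measured at each contrast. Dusp6, the ERK phosphatase, passed as higher on d15 (1.92) and on d36 (1.73), and Dusp3 on d36 (1.57), while on d22 both ratios were below 1 and neither passed. Of 18 upstream kinases and factors, Mapk8, which codes for JNK1, passed on d15 (1.84) and Mkl2, a cofactor of serum response factor, on d36 (1.63), out of 10 and 9 measured. Of 13 AP-1 subunits outside the 10, at most 2 were measured. On d22 Mafg passed as lower (0.642). Of 10 genes known as AP-1 targets, 3 were measured, and Ccnd1, which codes for cyclin D1, passed as lower on d15 (0.540) and d36 (0.632). On d22 no gene of the early response and phosphatase lists passed as higher, where 0.253% of all measured genes did, beside 4.12% on d15 and 4.28% on d36.

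Tissue handling leaves no label in these data, so genes known to be raised by cell dissociation are given beside the results. Of 12 heat shock genes of this kind, 10 were measured at each contrast, and the sum over all 12 was 4742 CPM on d0, 5104 on d15, 3943 on d22 and 5074 on d36. The sum was lowest on d22, and it was higher on d15 and d36 than on d0, as was the sum of the 10 early genes. That order rested on Hspa8, since without it the remaining heat shock genes summed to less on d15 and d36 than on d0. On d22 all 10 measured heat shock genes had ratios below 1, and on d15 and d36 the split was 5 above and 5 below. Hspa1a, an inducible HSP70 gene, was 58.5 CPM on d0, 45.8 on d15, 32.0 on d22 and 130 on d36, with ratios of 0.546 on d22 and 2.22 on d36 that passed the size rule. Hspa8, the constitutive HSC70 gene, was 1665, 2218, 1340 and 2216 CPM, and like Dusp1 was higher on d15 and d36 than on d0 and d22, with all 3 ratios short of the size rule. The median share of mitochondrial UMIs was 1.88% on d0, 1.95% on d15, 1.61% on d22 and 2.86% on d36. The part of handling in any difference between days was not tested.

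Vessel classes were formed from clusters made without the 10 genes and without the lists of AP-1 subunits and early response genes, and named from marker lists. General capillary-like cells, the common capillary EC of the lung, were 49.5% to 61.6% of EC by day. They served as the reference because every day held at least 876 of them. The largest clusters of this class were those led by Pcp4l1 and H2-DMa on d0, by H2-DMa on d22, and by Slc39a1 and Hmcn1 on d15 and d36, so its makeup differed between days. Aerocyte-like cells, large thin capillary EC marked by genes such as Ednrb, had at least 50 cells at every day, venous-like cells on d0, d15 and d22, and arterial-like cells on d0 and d22 only. Aerocyte-like cells lay mostly in a cluster led by Chst1 on d0 and d22 and in one led by Tbx2 on d36, and were split between both on d15. Each class was compared within its own day, and a gene counted only if it passed the size rule in every day compared.

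Arterial-like cells, 73 on d0 and 76 on d22, held the highest summed level of the 10 genes among the classes compared. The sum was 15452 CPM on d0 and 16833 on d22, beside 10083 and 10830 in general capillary-like cells. In these cells 5 of the 10 genes passed as higher at both days and none as lower, beside 4.99% of measured genes as higher and 8.03% as lower. Fos was 3000 CPM on d0 and 3393 on d22, beside 1218 and 1318 in general capillary-like cells, ratios of 2.46 (2.23 to 2.72) and 2.57 (2.37 to 2.79). Fosb had ratios of 2.61 and 2.74, Dusp1 of 2.16 and 2.36, Egr1 of 1.94 and 2.73, and Ier2 of 1.52 and 1.79. Junb had 1.56 and 1.40 and Atf3 2.20 and 1.48, each past the rule on d0 only. Jun (1.11 and 1.08) and Jund (1.14 and 1.01) lay near 1, and Ier3 was below 1 at both days (0.739 and 0.728). The Fos genes and Egr1 thus stood well above their general capillary-like level in these cells, and Jun and Jund did not.

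This result depended on the clustering. With clusters made at a coarser resolution of 0.5, Fos, Fosb, Egr1, Ier2 and Dusp1 again passed at both days. Fos then had ratios of 2.40 on d0 and 2.51 on d22. When clusters were made with all variable genes, the early genes included, the class took in another 362 cells from clusters left unnamed here, 342 of them from the one led by Esm1 and Ivns1abp, and reached 176 cells on d0 and 232 on d22. In that wider class none of the 10 genes passed at all 4 days compared, and Fos had ratios of 1.44 on d0 and 1.19 on d22. All 227 arterial-like cells of the main clustering stayed in the class, and the cluster led by Esm1 had 1422 CPM of Fos on d0. The reference changed as well, from 1715 to 1327 general capillary-like cells on d22. It then held a cluster led by Atf3, with 343 cells on d0 and 363 on d22, whose high level of the 10 genes is given below. The Fos ratio of venous-like cells on d22 moved from 1.75 to 1.35. The parts of the class and of the reference in these changes were not tested. With collapsed counts Ier2 no longer passed in arterial-like cells, and 4 genes did. The arterial-like cells had median mitochondrial shares of 2.27% on d0 and 2.18% on d22, beside 1.86% and 1.58% in general capillary-like cells. Their summed heat shock levels were 4641 and 4608 CPM, beside 4210 and 3426 CPM. The part of these in the result was not tested.

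Venous-like cells had 1 gene past the rule as higher in all 3 days compared, Fos, and none as lower, beside 2.87% and 4.3% of measured genes. Fos was 1868 CPM on d0, 2435 on d15 and 2303 on d22, with ratios of 1.53 (1.41 to 1.67), 1.59 (1.39 to 1.82) and 1.75 (1.61 to 1.89). This call was lost with clusters made at a coarser resolution of 0.5, where the d0 ratio was 1.47, with clusters made with all variable genes (1.28 on d0), and with collapsed counts. Ier3 was above 1 at each day (1.39, 1.58 and 1.31), unlike in arterial-like cells, and so were Egr1 (1.41, 1.88 and 1.54), Junb (1.28, 1.41 and 1.43) and Dusp1 (1.35, 1.28 and 1.38). The difference between the venous-like and arterial-like ratios was not tested.

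Aerocyte-like cells had no gene of the 10 past the rule in all 4 days, beside 6.78% of measured genes as higher and 8.5% as lower. Ier3 had ratios of 0.718 on d0, 0.746 on d15, 0.576 on d22 and 0.798 on d36, and was the 1 gene that passed in all days, as lower, with a lower fold set in place of 1.5. Fos (0.884, 0.637, 0.623 and 0.868), Fosb (0.766, 0.608, 0.442 and 0.797) and Junb (0.836, 0.708, 0.657 and 0.831) were below 1 at each day, lowest on d22. So were Atf3 (0.817, 0.759, 0.394 and 0.954) and Egr1 (0.750, 0.977, 0.508 and 0.631). On d22 taken alone all of these and Ier3 passed as lower, as did Fos and Fosb on d15 and Egr1 on d36. The share of all measured genes past the rule on a single day was not computed. Jun (0.980 to 1.14) and Jund (0.956 to 1.04) lay near 1. These cells were deeper than general capillary-like cells on d0, with median UMIs of 12973 against 7279, and had more heat shock UMIs (6135 against 4210 CPM).

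**Figure D3:**
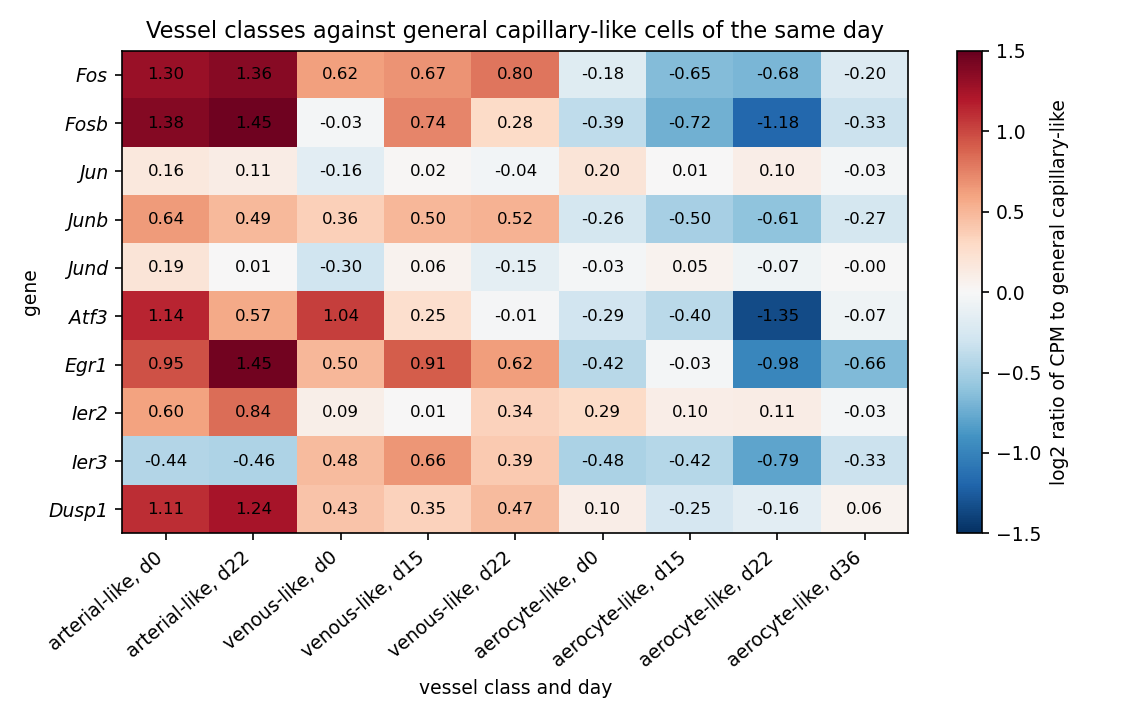
Log2 ratio of the CPM of each gene in arterial-like, venous-like and aerocyte-like cells to general capillary-like cells of the same day, for each class and day with at least 50 cells. Fos, Fosb, Egr1 and Dusp1 are red in arterial-like cells at both days, and Ier3 is blue in arterial-like and aerocyte-like cells and red in venous-like cells.

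The day differences were also read within classes. Dusp1 passed as higher on d15 in general capillary-like cells (1.67), venous-like cells (1.57) and the unnamed cluster led by Esm1 and Ivns1abp (1.61). On d36 it passed in general capillary-like cells (1.78) and aerocyte-like cells (1.73). It did not pass in aerocyte-like cells on d15 (1.31), in the cluster led by Esm1 on d36 (1.41), or in the unnamed cluster led by Slc6a6 and Cxcl12 at either day (1.33 and 1.03), nor in the Malat1-poor cells. Egr1 was 354 CPM on d0 and 234 on d15 in general capillary-like cells and passed as lower (0.661, interval 0.567 to 0.767). Fos passed as lower on d36 in both unnamed clusters (0.649 and 0.631), and was 0.992 in general capillary-like cells, a difference between classes that was not tested. On d22 Fosb (0.564), Atf3 (0.628) and Egr1 (0.661) passed as lower in aerocyte-like cells.

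Per-cell co-expression was measured on collapsed counts, each cell thinned to 300 of them, as Pearson's r of log2(count + 1) over the cells of a day. The median r over the 45 pairs was 0.086 on d0, 0.075 on d15, 0.081 on d22 and 0.069 on d36, over 2628, 1480, 3190 and 1578 cells. All points of a day share their pooled sample, and correlations this low in sparse counts are a description only. Fos with Junb was the highest pair, with a median over days of 0.22 and a range of 0.15 to 0.26. Junb with Ier2 followed at 0.20 (0.19 to 0.22) and Fos with Ier2 at 0.15 (0.11 to 0.18). Fosb with Dusp1 was the lowest pair at 0.02. Junb had the highest median r with the other 9 genes on d0 (0.15), d15 (0.13) and d22 (0.14), and Fos on d36 (0.11), while Jund was at most 0.06 at any day. Fos and its best known partner among the 10, Jun, had an r of 0.14 (0.11 to 0.15), below that of Fos with Junb.

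The values rose with the counts used. With all UMIs scaled to the cell's total the median r was 0.279 on d0, 0.144 on d15, 0.284 on d22 and 0.172 on d36, higher at the 2 deeper days than at the 2 shallower ones. With thinning to 300 collapsed counts the days lay between 0.069 and 0.086. In general capillary-like cells alone the thinned medians were 0.080, 0.065, 0.071 and 0.077, and without Malat1-poor cells 0.081, 0.068, 0.079 and 0.064.

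**Figure D4:**
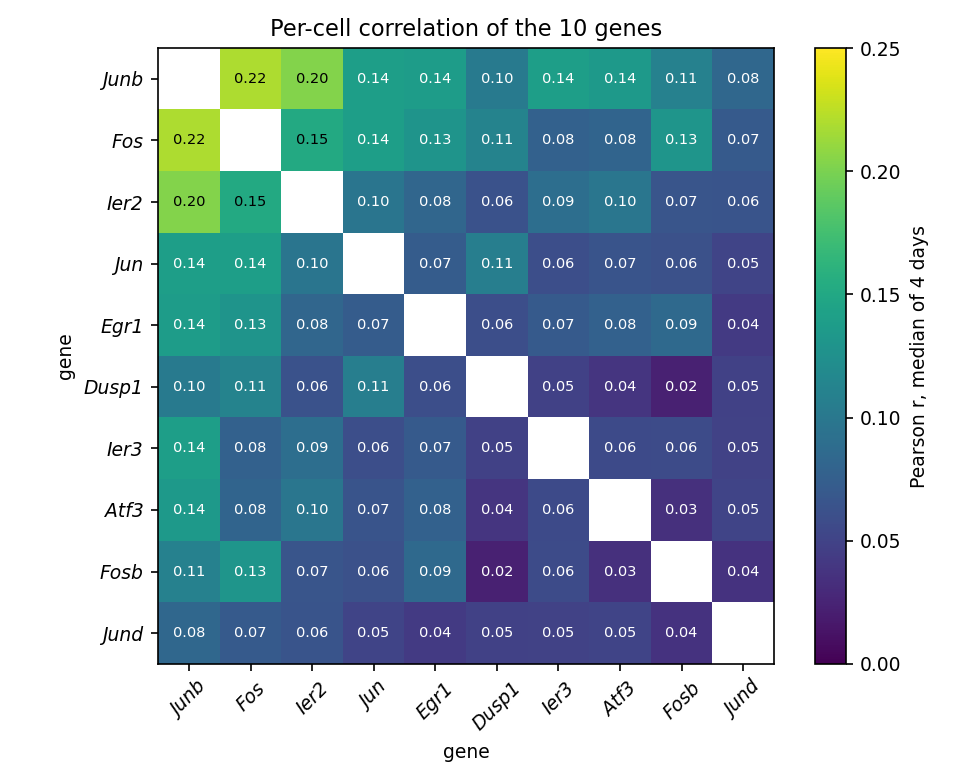
Pearson's r across cells of log2(collapsed count + 1) for each pair of the 10 genes, each cell thinned to 300 collapsed counts, as the median of the 4 days. Fos with Junb (0.22) and Junb with Ier2 (0.20) are the brightest cells, and the row of Jund is dark.

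In shares of cells the same pairs read as follows. On d0 Egr1 was found in 15.5% of cells with Fos and in 7.27% of cells without it. The shares were 10.4% and 6.44% on d15, 14.4% and 7.55% on d22, and 12.6% and 6.73% on d36. Fosb was found in 9.93% of cells with Fos and 4.97% of cells without on d0, and in 7.22% and 4.24% on d36. Atf3 showed the widest gap with Egr1, which was found in 22.9% of the 83 cells with Atf3 and in 9.08% of the others on d0. Jun and Jund had narrower gaps, with Jund in 19.4% of cells with Jun and 17.2% of cells without it on d0, and in 22.9% and 17.9% on d22. In each of these pairs the share was higher, on all 4 days, in cells that held the first gene named. Of the other pairs read, Atf3 with Jun on d0 was the exception, with Atf3 in 2.88% of cells with Jun and 3.42% of cells without it. The part of free RNA, which would be shared by all cells of a library, was not tested.

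Of the 10 genes, a thinned cell held none in 13.7% of cells on d0, 8.99% on d15, 12.1% on d22 and 9.06% on d36. It held 3 or more in 35.3%, 48.6%, 39.8% and 49.0%, and 6 or more in 3.61%, 4.26%, 3.29% and 3.68%. The cells of d15 and d36 thus more often held several of the genes at equal depth, while the share of cells with 6 or more differed little. Which gene was most uneven across cells depended on the measure. The variance of the thinned count divided by its mean is 1 for counts that vary by sampling alone, and it also depends on a gene's level. It was highest for Junb (1.63) and Fos (1.42) on d0, and 1.07 for Jund. The 10% of cells with the most Fos held 54.4% of its thinned counts on d0, beside 49.0% for Junb and 36.8% for Jun. This share was higher for Ier3 (64.2%) and Jund (60.3%). It was 100% for Fosb, Atf3 and Egr1, each found in under 10% of thinned cells.

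**Figure D5:**
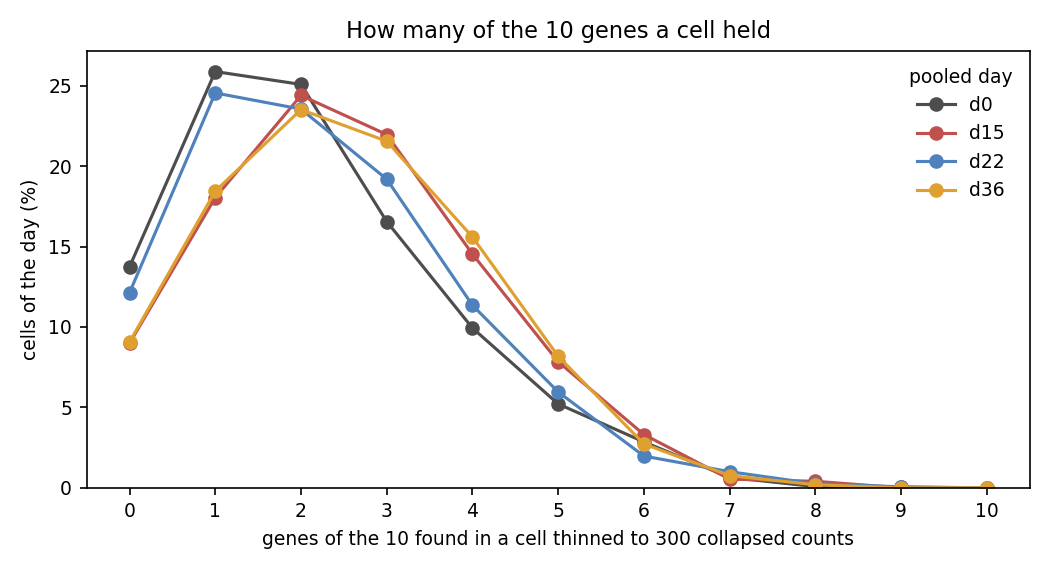
Share of cells (%) by how many of the 10 genes they held after thinning to 300 collapsed counts, for each day. The curves of d15 and d36 lie to the right of those of d0 and d22, and all 4 meet near 6 genes (1.97% to 3.31% of cells).

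When the 10 genes were let into the variable genes, clustering returned a cluster led by Atf3 that held 13.1% of EC on d0 (11.8 to 14.4), 3.31% on d15 (2.46 to 4.35), 11.4% on d22 (10.3 to 12.5) and 5.83% on d36 (4.73 to 7.10). The cluster was defined by these genes, so its levels are a description. The summed level of the 10 genes in it was 18276 CPM on d0 and 20836 on d22, beside 8891 and 9317 in the other EC. On d0 63.6% of its cells lay in the general capillary-like class of the main clustering. The share was higher at the 2 deeper days, while the summed level over all EC was higher at the shallower ones.

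Outside the 10, the genes most like them were ranked among 887 genes found in at least 5% of thinned cells at every day, by the median over days of r with the mean of the 10. Among the highest were the cytokine feedback gene Socs3 (0.18), Ppp1r15a, a regulator of the stress response phosphatase (0.17), the nuclear RNA Malat1 (0.17), Gm12216 (0.16) and the antiproliferative gene Btg2 (0.15). Klf4 (0.14), Klf2, Plk2 (both 0.12) and Cyr61 (0.11) followed. Of these, Socs3, Btg2, Klf4, Plk2 and Cyr61 were on the list of early response genes. The ranking included the Malat1-poor cells, which were 6.24% of EC on d0, 3.65% on d15, 3.98% on d22 and 8.49% on d36. Those cells were also low in the 10 genes, as given below. The r of Malat1 was 0.184, 0.146, 0.135 and 0.265 at these days, and the part of the Malat1-poor cells in it was not tested. The median over all 887 genes was −0.01. Of the 12 heat shock genes 5 were ranked, between 75th (Dnaja1, 0.03) and 217th (Hspb1). The rest were found in too few cells to be ranked. Of these, Hspa1a had an r of 0.12, 0.01, 0.10 and 0.15 at the 4 days, and Dnajb1 0.10, 0.01, 0.09 and 0.09. The other unranked heat shock genes were lower at each day with a value. Hspe1 lay between −0.030 and −0.005, Hspd1 between −0.042 and 0.016, and Dnajb4 between −0.033 and 0.038. Hsph1 lay between −0.003 and 0.005, and Hspa1b, without a value on d15, between −0.006 and 0.020.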

How the data were processed

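Single-cell UMI counts of lung EC were taken from 1 deposited table of 9036 cells and 28692 genes. The values are counts as the authors deposited them, unscaled. Cell Ranger 2.1.1 and the build mm10 are named in the submitters' processing notes, and any step after that is not given in the sources used here. Multiples of 4 made up 56.5% to 66.5% of the nonzero values by day. The series' design text states 4 libraries per sample, and whether values were added over them is not given in the sources used here. Intervals (exact, 95%) and per-cell measures therefore used counts divided by 4, a change from the planned use of the deposited counts, whose values are kept as an alternative.

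Cells under 300 genes or over 10% mitochondrial UMIs were left out. Scrublet called 0.277% of cells doublets, too few for the caller to be taken to have worked, so doublets remain. Clusters came from 1978 variable genes, 30 principal components, 15 neighbours and the Leiden method at resolution 1 (scanpy 1.11.5, leidenalg 0.10.2, Python 3.11.15), and rules for naming them were revised after the clusters had been seen. Clusters low in Malat1 (under 25% of the median cluster) and clusters led by another list's genes were not given a vessel name. CPM are UMIs summed over the cells of a day or class per 1000000. Levels of 8876 EC rested on 22848893 UMIs on d0, 6871177 on d15, 27602061 on d22 and 6687401 on d36. With 1 pooled sample per day no p-value was computed, and genes were counted by the size rule. TMM factors came from edgeR 4.0.16, and median-of-ratios size factors were computed directly. The steps were tested on simulated data. The 10 genes, the lists and the markers were chosen with earlier results of these data known. All 10 genes are named, with, per list and contrast, up to 2 genes past the size rule at each end, and the 10 genes most like them, except that 2 genes these rules would name are not reported here. Exceptions, named after their values were seen, are Hspa8, Dnaja1, Hspb1, Dnajb1, Hspe1, Hspd1, Dnajb4, Hsph1 and Hspa1b.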

Additional observations from a re-analysis of the deposited data

Results flagged for a closer look

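Atf3 passed the size rule in opposite directions in different EC on d22 against d0. Its ratio was 0.628 in aerocyte-like cells (0.477 to 0.824) and 0.629 in venous-like cells (0.426 to 0.920), and 1.59 in the unnamed cluster led by Esm1 and Ivns1abp (1.16 to 2.19). Each is a ratio of 2 pooled days, and the difference between the classes was not tested.

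The cells left out of the EC also held the 10 genes. Their summed level was 10793 CPM in 63 fibroblast-marked cells, 6966 CPM in 22 epithelial-marked cells and 4149 CPM in 31 cells with markers of other types. Fos was 2625 CPM in the fibroblast-marked cells, beside 1132 to 1533 CPM in the EC of the 4 days. No comparison used these cells.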

How the results depend on the processing

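No paired analysis was possible because the cell names carry no library or animal, and for the same reason no replicate could be left out. Alternatives to the count of the 10 genes past the size rule against d0, which was 1 on d15, 0 on d22 and 1 on d36, gave 2 on d15 with TMM factors, with size factors and in general capillary-like cells only. On d36 they gave 2 with the mean of each cell's CPM, with cells thinned to 1200 UMIs and in general capillary-like cells only. A lower fold gave 5 on d15 and 5 on d36, and a fold of 2 gave 0 at both. On d22 every alternative run gave 0. The share of all measured genes past the rule was not computed for any of these alternatives. The ratio of Dusp1 lay between 1.51 and 1.67 on d15 and between 1.53 and 1.78 on d36 under all of them. The median log2 ratio of the 10 genes moved by less than 0.1 throughout.

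Against general capillary-like cells, the lower fold gave 1 gene in aerocyte-like, 8 in arterial-like and 5 in venous-like cells, where 1.5 gave 0, 5 and 1. The share of all measured genes at the lower fold was not computed here either. Clusters made with all variable genes gave 0 in arterial-like and 0 in venous-like cells, with days compared that the main clusters lacked for the former. Resolution 0.5 and collapsed counts each gave 0 in venous-like cells, and collapsed counts gave 4 in arterial-like cells, with Ier2 lost.

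The median r on d0, 0.086 in the main form, was 0.137 with cells thinned to 625 collapsed counts (2500 UMIs), 0.279 with all UMIs scaled to the total and 0.186 with deposited counts thinned to 1200. On d22 the same settings gave 0.145, 0.284 and 0.173, on d15 all UMIs gave 0.144, and on d36 all UMIs gave 0.172 and deposited counts 0.132. The intervals from undivided counts, the collapsed counts, general capillary-like cells only, cells without shared barcodes and cells without low Malat1 were chosen after seeing the data. Depth limits Atf3 most, with 530 UMIs on d15 beside 2572 on d0.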

Other observations

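Lymphatic-like cells, 56 in all and at most 22 per day, held more Fos and less Ier3 than general capillary-like cells on d0 and d22. Fos was 2854 CPM on d0 in 22 cells (2315 to 3481) and 2143 CPM on d22 in 19 cells (1663 to 2720), while Ier3 was 80.7 and 183 CPM there, beside 842 and 984 CPM in general capillary-like cells. Atf3 had 1 UMI on d0, with an interval up to 123 CPM that includes the 105 CPM of general capillary-like cells, and none on d22, where the interval of 0 of 125968 UMIs reaches 117 CPM, beside 137 CPM. These cells were too few for a comparison by the rule of 50 cells.

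Proliferating cells, marked by Birc5 and Top2a, had a summed level of 5569 CPM on d0 (26 cells) and 5239 CPM on d22 (19 cells). Malat1-poor cells had 3519 to 4865 CPM by day, below the 10083 to 13001 CPM of general capillary-like cells. Of the general capillary-like clusters, the summed level over all days was 12900 CPM in the one led by Slc39a1 and Abhd2, 12599 CPM in the one led by Hmcn1 and mt-Nd3 and 7817 CPM in the one led by Kit and Nckap5. The clusters drew different shares of their cells from each day, and the part of the days in this order was not tested.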
